A study of Arabidopsis thaliana with 32 samples.

Results

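A group of 34 loci on the chromosome arms of Arabidopsis thaliana had higher array signal in seedlings of the sahh1 mutant than in Columbia wild type at day 7 and day 10, without such a difference at day 1. They were chosen from 30385 loci on the array, of which 26076 lie on the nuclear chromosomes outside 5 blocks around the centromeres and are neither FWA (AT4G25530) nor AT2G17690. The blocks run from AT1G35500 to AT1G44100, AT2G05500 to AT2G14500, AT3G29500 to AT3G44250, AT4G04000 to AT4G08800 and AT5G28000 to AT5G36500. A locus was taken where the mean log2 intensity of sahh1 minus that of wild type was at least 1 at both day 7 and day 10, with all 4 sahh1 arrays above all 4 wild-type arrays at both ages (an order that 7.51% of all loci had at day 7 and 6.01% at day 10), and where the difference at day 1 was under 1. The values of days 1, 7 and 10 therefore chose the loci and are given here as a description. The day 4 values were not used in the choice, and their comparison is the one that was tested. Its p-values are not wholly separate from the choice, because limma pooled the spread of a locus over the groups of all ages.

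Total RNA from seedlings was hybridised to 32 single-colour (Cy3) arrays, 4 for each combination of genotype and age. The groups were sahh1 at 1, 4, 7 and 10 days and Columbia wild type at the same ages. The labels name the mutant by its genotype alone, without the allele, and do not say whether arrays of a group came from separate cultures. In each group arrays 1 and 2, and arrays 3 and 4, resembled each other more than the other pair, so the mean of a pair is taken as 1 sample, which gives n = 2 in every group. The p-values therefore measure the spread between these samples, which may be technical.

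S-adenosylhomocysteine is left over whenever a methyltransferase uses S-adenosylmethionine, and it inhibits such enzymes until S-adenosylhomocysteine hydrolase breaks it down. The enzyme encoded by SAHH1 therefore bears on the methylation of DNA and of histones. In plants, methylated cytosines keep transposons, their relics and a limited number of genes silent. FWA is a much studied example, a homeodomain gene silenced in vegetative tissue through methylated repeats at its start.

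SAHH1 signal in sahh1, as a share of that in wild type, was 41.6% at day 1, 34.5% at day 4, 71.7% at day 7 and 58.8% at day 10. The decrease passed limma's test at days 1 and 4 (adjusted p = 0.0117 and 0.0144, n = 2 samples each). FWA was higher in sahh1 by 1.74 ± 0.27 (log2, SE) at day 4, 2.79 ± 0.27 at day 7 and 2.71 ± 0.27 at day 10, with 0.14 ± 0.27 at day 1. The median intensity of an array lay between 995 and 1054 at day 1 in sahh1 and between 1019 and 1049 in wild type, and it was lowest at day 4, where it was 449 to 493 in sahh1 and 460 to 470 in wild type. The dim end of the arrays also moved with age: the log2 intensity of the 5th percentile was 3.5 at day 1, 5.02 at day 4, 4.28 at day 7 and 4.03 at day 10 in sahh1. Levels and differences of dim loci are therefore not on one scale across ages, and differences between ages were not tested. The samples of sahh1 at day 4 were the least alike: the SD of the difference between them over bright loci was 0.686, against 0.16 to 0.313 in the remaining groups.

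The 34 loci comprised 23 annotated as protein-coding and 11 annotated as pseudogenes, and 7 have a gene symbol. There were 12 on chromosome 1, 8 on chromosome 2, 4 on chromosome 3, 3 on chromosome 4 and 7 on chromosome 5. The difference ranged between 1.07 and 4.07 on the log2 scale at day 7 with a median of 1.77, and between 1.01 and 3.02 at day 10 with a median of 1.65. It was larger at day 7 than at day 10 for 20 of the 34. At day 1 the median was 0.28 and the range -0.38 to 0.97. Relative to the wild-type mean of the same age, the median locus stood at 0.27 and 0.28 in the 2 sahh1 samples of day 1, at 0.77 and 0.35 in those of day 4, at 1.75 and 1.90 in those of day 7 and at 1.63 and 1.57 in those of day 10. The 2 samples of days 7 and 10 thus gave nearly equal medians, and those of day 4 did not.

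**Figure D1:**
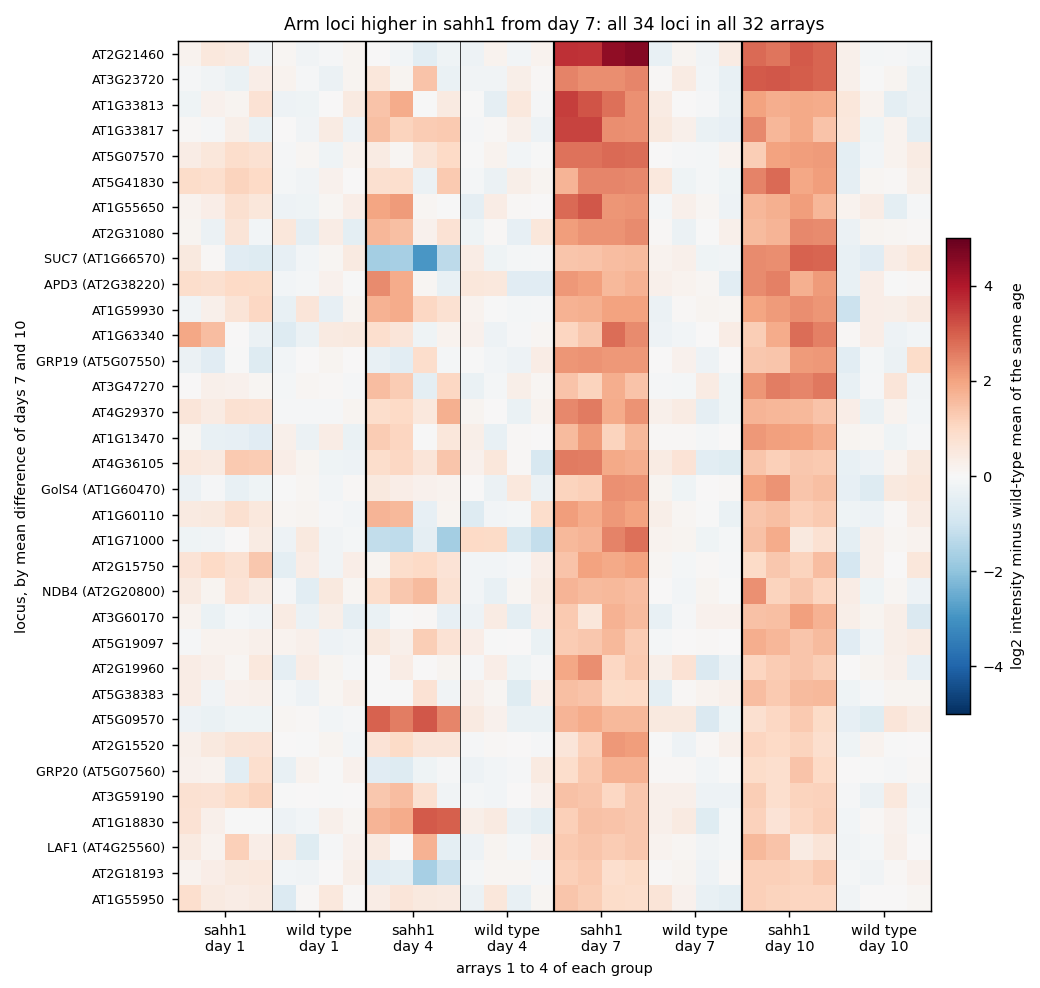
Each row is 1 of the 34 loci, ordered by the mean difference of days 7 and 10, and each column 1 of the 32 arrays, with sahh1 left of wild type at each age; colour gives the log2 intensity minus the wild-type mean of that age. The sahh1 arrays of days 7 and 10 are red throughout, as the choice of loci requires, whereas those of day 4 are mixed, with SUC7 and AT2G18193 below wild type.

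Of the 34, limma called 19 higher at day 7, where 0.563% of all loci were called higher, and 17 at day 10, where 0.823% were. There were 15 called at both ages, 4 at day 7 alone, 2 at day 10 alone and 13 at neither. These 13 were APD3, GolS4, LAF1, AT1G18830, AT1G55950, AT1G60110, AT1G63340, AT1G71000, AT2G15520, AT2G18193, AT2G19960, AT3G59190 and AT5G09570. At day 1, 1 of the 34 was called higher (AT2G15750), against 2.16% of all loci. The day 1 difference was above 0 at 26 of the 34, as at 44.0% of all loci, with all 4 sahh1 arrays above wild type at 9 (7.95% of all loci) and below it at 1, AT5G09570 (8.95% of all loci). Nothing is read from these counts, because the same values picked the loci.

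Among the 11 pseudogenes, AT2G21460 had the highest fitted difference at day 7. Its log2 intensity was 8.02, 7.98, 8.81 and 8.96 on the sahh1 arrays of day 7, against 4.00, 4.49, 4.21 and 4.78 on those of wild type. At day 10 it was 6.86, 6.68, 7.09 and 6.94 in sahh1, against 4.27, 3.94, 3.98 and 3.90 in wild type. The fitted differences came to 4.07 ± 0.24 (SE) at day 7 and 2.87 ± 0.24 at day 10. Wild type lay at the dim end of the arrays, at the 5.47 percentile of loci at day 7 and the 3.39 percentile at day 10. The table holds no detection call, so no fold is given for it, and the same holds for other loci at that end. At the earlier ages it did not stand apart: the difference was 0.24 ± 0.24 at day 1 and -0.21 ± 0.24 at day 4, with overlapping arrays at both.

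The pseudogene AT3G23720 gave the highest fitted difference at day 10. It read 8.42, 8.44, 8.37 and 8.26 on the day 10 arrays of sahh1, against 5.61, 5.32, 5.47 and 5.0 on those of wild type. At day 7 it read 7.89, 7.74, 7.74 and 7.83 in sahh1, against 5.48, 5.83, 5.26 and 5.04 in wild type. The fitted differences were 3.02 ± 0.19 at day 10 and 2.39 ± 0.19 at day 7, and its sahh1 arrays spanned a narrower range than its wild-type arrays at both ages. Wild type was dim here too, at the 25.3 percentile of loci at day 10 and the 18.7 percentile at day 7, so no fold is given.

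AT1G33813 and AT1G33817 are adjacent pseudogenes with similar values at days 7 and 10. At day 7 AT1G33813 read 9.37, 9.06, 8.66 and 8.17 in sahh1, against 6.30, 5.91, 5.82 and 5.56 in wild type. AT1G33817 read 9.20, 9.20, 8.15 and 8.11 in sahh1, against 6.29, 6.05, 5.49 and 5.41 in wild type. In both loci arrays 1 and 2 were brighter than arrays 3 and 4 in either genotype at that age. At day 4 they parted on sahh1 arrays 3 and 4, where AT1G33813 read 5.57 and 6.04 and overlapped wild type, and AT1G33817 read 6.95 and 7.01 and did not. The differences were 2.92 ± 0.44 and 2.86 ± 0.31 at day 7, and 1.89 ± 0.44 and 1.85 ± 0.31 at day 10. Whether probes of one could bind transcripts of the other could not be examined without probe sequences.

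AT2G31080, also a pseudogene, read 8.71, 8.84, 8.84 and 8.96 at day 7 in sahh1, against 6.65, 6.31, 6.60 and 6.88 in wild type, a difference of 2.22 ± 0.32. The pseudogene AT3G47270 had a larger difference at day 10, 2.46 ± 0.31, than at day 7, 1.45 ± 0.31. The median of all 11 pseudogenes was 0.14 at day 1, 0.68 at day 4, 1.84 at day 7 and 1.85 at day 10. For the 23 protein-coding loci the medians were 0.44, 0.66, 1.70 and 1.45 at the same ages.

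GRP19 (AT5G07550), GRP20 (AT5G07560) and the protein-coding locus AT5G07570 lie next to each other on chromosome 5. GRP19 and GRP20 belong to a cluster of glycine-rich, oleosin-like proteins that the anther tapetum makes for the pollen coat. GRP19 read 6.46, 6.5, 6.43 and 6.41 on the day 7 arrays of sahh1, against 4.27, 4.49, 4.02 and 4.26 on those of wild type. GRP20 read 5.96, 6.36, 6.82 and 6.82 in sahh1, against 5.13, 5.13, 4.95 and 5.06 in wild type. AT5G07570 read 7.05, 7.05, 7.14 and 7.12 in sahh1, against 4.33, 4.25, 4.23 and 4.49 in wild type. The fitted differences at day 7 were 2.76 ± 0.25 for AT5G07570, 2.19 ± 0.31 for GRP19 and 1.42 ± 0.23 for GRP20, with wild type of AT5G07570 and GRP19 at the dim end (the 4.94 and 3.99 percentile of loci), so they are not ranked. At day 10 the differences were 1.87 ± 0.25, 1.75 ± 0.31 and 1.05 ± 0.23 in the same order. At day 4 neither GRP gene was above wild type, with -0.03 ± 0.31 for GRP19 and -0.37 ± 0.23 for GRP20.

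SUC7 (AT1G66570), a member of the family of sucrose and proton symporters, stood above wild type at days 7 and 10 and below it at day 4. At day 10 it read 8.47, 8.44, 9.08 and 9.01 in sahh1, against 5.75, 5.53, 6.48 and 6.70 in wild type, and at day 7 8.39, 8.42, 8.54 and 8.60 in sahh1, against 7.19, 7.25, 6.78 and 6.83 in wild type. The differences were 1.47 ± 0.37 at day 7 and 2.64 ± 0.37 at day 10. At day 1 the genotypes overlapped near the dim end of the arrays, with means of 3.91 in sahh1 and 4.07 in wild type.

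APD3 (AT2G38220), of a family named for aberrant pollen development, read 9.50, 9.39, 8.98 and 9.09 at day 7 in sahh1, against 7.59, 7.54, 7.44 and 6.81 in wild type. Its difference was 1.90 ± 0.57 at day 7 and 2.19 ± 0.57 at day 10, with 0.90 ± 0.57 at day 1, just under the limit of the choice. The SE was among the widest of the 34. The sahh1 samples of day 4 were far apart at this locus, with 8.56 and 8.04 on arrays 1 and 2 and 6.27 and 5.82 on arrays 3 and 4.

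GolS4 (AT1G60470) encodes a galactinol synthase, which makes the galactose donor of raffinose sugars. At day 7 it read 9.71, 9.79, 10.89 and 10.85 in sahh1, against 8.73, 8.41, 8.64 and 8.67 in wild type, and at day 10 10.33, 10.56, 9.69 and 9.81 in sahh1, against 7.92, 7.67, 8.81 and 8.88 in wild type. It differed from most of the 34 in that wild type too was well above the dim end of the arrays at these ages, at the 37.1 and 40.1 percentile of loci. At days 1 and 4 both genotypes were dim, with group means of 3.70 and 5.40 in sahh1 and 3.93 and 5.10 in wild type.

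LAF1 (AT4G25560) encodes a MYB factor of the far-red light response downstream of phytochrome A. It read 8.75, 8.81, 8.71 and 8.79 on the day 7 arrays of sahh1, against 7.61, 7.55, 7.26 and 7.34 on those of wild type. The difference was 1.33 ± 0.28 at day 7 and 1.03 ± 0.28 at day 10. NDB4 (AT2G20800) encodes an alternative NAD(P)H dehydrogenase on the outer face of the inner mitochondrial membrane. Its difference was 1.61 ± 0.23 at day 7 and 1.45 ± 0.23 at day 10, and it is among the loci called at day 4.

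Of the protein-coding loci without a symbol, AT5G41830, AT1G55650, AT1G59930 and AT1G63340 had the largest mean differences over days 7 and 10 after AT5G07570. AT5G41830 read 7.09, 7.84, 7.86 and 7.81 at day 7 in sahh1, against 5.95, 5.19, 5.31 and 5.18 in wild type. AT1G55650 read 7.91, 8.17, 7.28 and 7.32 in sahh1, against 4.97, 5.30, 5.15 and 4.82 in wild type. AT1G59930 read 7.75, 7.78, 8.0 and 8.0 in sahh1, against 5.72, 6.06, 6.12 and 6.08 in wild type. The sahh1 arrays of these loci lay at least 1 log2 unit above the highest wild-type array. AT1G63340 read 8.35, 8.63, 10.06 and 9.63 in sahh1, against 7.02, 7.15, 7.30 and 7.66 in wild type, and its day 7 difference of 1.89 ± 0.62 had the widest SE of the loci named here.

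The remaining protein-coding loci without a symbol had a smaller mean difference over days 7 and 10. AT1G13470 differed by 1.61 ± 0.26 at day 7 and 2.02 ± 0.26 at day 10, and AT4G29370 by 2.28 ± 0.22 and 1.6 ± 0.22. AT4G36105, AT1G60110 and AT1G71000 were more than 2 at day 7 (2.21, 2.03 and 2.14) and lower at day 10 (1.31, 1.35 and 1.14). AT2G19960, AT3G59190 and AT1G55950 differed by 1.65, 1.31 and 1.11 at day 7 and by 1.23, 1.09 and 1.12 at day 10. AT2G18193 differed by 1.07 and 1.2.

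The other 5 pseudogenes lay between 1.22 and 1.84 at day 7. AT2G15750, with 1.84 ± 0.20 at day 7 and 1.24 ± 0.20 at day 10, is the one called at day 1, where it read 4.41, 4.69, 4.47 and 5.05 in sahh1, against 3.20, 4.09, 3.52 and 4.02 in wild type (0.95 ± 0.20). AT3G60170, AT5G19097 and AT5G38383 were larger at day 10 (1.69, 1.61 and 1.51) than at day 7 (1.3, 1.37 and 1.22). AT2G15520 was larger at day 7, with 1.5, than at day 10, with 1.01.

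The loci nearest the limits show how gradual the choice is. Just inside the limit of 1 were AT2G15520, AT1G18830 and AT5G09570, with day 10 differences of 1.01, 1.02 and 1.03. Just outside it were AT2G19970, which rounds to 1.00 at day 10, AT2G18190 with 0.98 at day 7, and AT3G13270 with 0.98 at day 10. At day 1, AT5G41830, AT2G15750 and APD3 were just inside with 0.97, 0.95 and 0.90. AT4G10695, AT2G15800 and AT3G19350 met the other conditions and were just outside with 1.04, 1.04 and 1.06.

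At day 4, the age that the choice did not use, sahh1 was higher at 4 of the 34 loci (11.8%) by limma at an adjusted p under 0.05, against 0.78% of all 30385 loci. It was lower at 1 (2.94%), against 0.833% of all loci. The fit gave each locus 1 spread for all groups, although the sahh1 samples of day 4 were the least alike (0.686 against 0.16 to 0.313). The day 4 p-values may therefore be too small. With array weights, and with day 4 fitted alone, 0 of the 34 were called higher, against 0.0527% and 0.0362% of all loci. All 4 sahh1 arrays lay above all 4 wild-type arrays at 8 of the 34 (23.5%), as at 6.38% of all loci, and below them at 2, SUC7 and AT2G18193, as at 6.15%. The median day 4 difference was 0.67, against 0.02 over all loci. It was above 0 at 27 of the 34 (52.0% of all loci) and at least 1 at 8 (1.44% of all loci), and 16 had an unadjusted p under 0.05 in that direction (8.17% of all loci). At day 4 the 34 were thus already spread between -1.89 and 2.76, so "from day 7" describes the choice and not when each locus first differed.

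**Figure D2:**
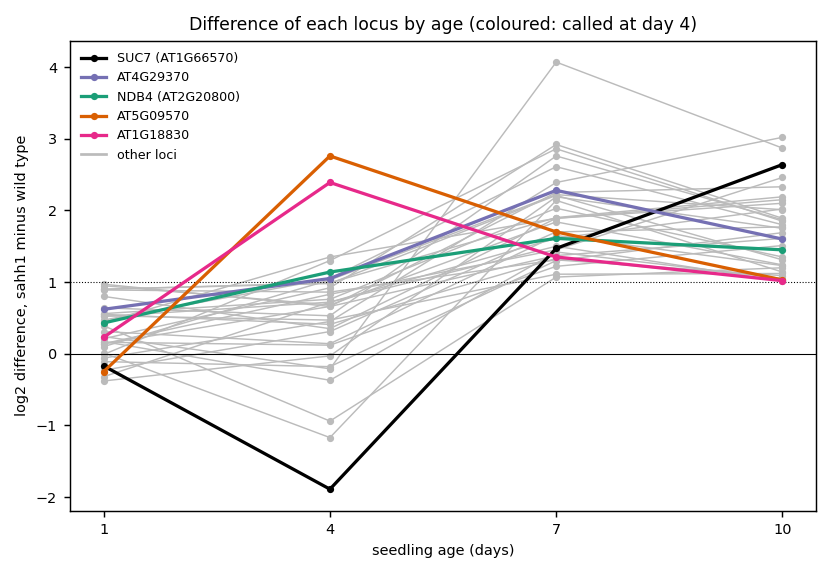
The log2 difference, sahh1 minus wild type, of each of the 34 loci (lines) at 1, 4, 7 and 10 days, with the 5 loci called at day 4 in colour and the limit of 1 dotted. AT5G09570 and AT1G18830 are highest at day 4, with 2.76 and 2.39, and SUC7 runs below 0 at day 4, with -1.89, before 1.47 and 2.64 at days 7 and 10.

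AT5G09570, a protein-coding locus, had the largest day 4 difference. It read 8.74, 8.35, 8.93 and 8.27 in sahh1, against 6.25, 6.04, 5.47 and 5.48 in wild type, with no overlap. The difference was 2.76 ± 0.35 (SE, limma adjusted p = 0.00511). Wild-type arrays 3 and 4 lay below the lower quartile of wild type at day 4 (5.61), so no fold is given. The difference was smaller at the ages that chose the locus, 1.70 ± 0.35 at day 7 and 1.03 ± 0.35 at day 10. At day 1 the order was turned: the locus read 6.90, 6.81, 6.94 and 6.92 in sahh1, against 7.26, 7.22, 7.03 and 7.08 in wild type, so that all 4 sahh1 arrays were below wild type by a mean of -0.25 ± 0.35.

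AT1G18830, listed in the reference with the synonym SEC31A, encodes a component of the COPII coat that buds vesicles from the endoplasmic reticulum. At day 4 it read 9.03, 9.18, 10.37 and 10.29 in sahh1, against 7.62, 7.78, 7.03 and 6.85 in wild type. The difference was 2.39 ± 0.38 (limma adjusted p = 0.0169), or 5.25-fold. As with AT5G09570, it was smaller later, 1.35 ± 0.38 at day 7 and 1.02 ± 0.38 at day 10. Limma called neither AT5G09570 nor AT1G18830 at day 7 or day 10.

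NDB4 read 6.42, 6.90, 7.10 and 6.28 at day 4 in sahh1, against 5.40, 5.17, 5.64 and 5.93 in wild type, a difference of 1.14 ± 0.23 (limma adjusted p = 0.0387). AT4G29370, a protein-coding locus, read 6.54, 6.67, 6.19 and 7.46 in sahh1, against 5.81, 5.67, 5.32 and 5.86 in wild type, a difference of 1.05 ± 0.22 (limma adjusted p = 0.0404). Neither locus overlapped between genotypes, and both differences were larger at day 7, with 1.61 ± 0.23 and 2.28 ± 0.22. These were the weaker of the day 4 calls. With the pair of arrays as a random block limma's adjusted p was 0.0606 for NDB4 and 0.0567 for AT4G29370. At both, sahh1 arrays 3 and 4 lay further apart than the 2 sahh1 sample means (SD 0.03 and 0.16), a spread that the averaging leaves out. Over 26 alternatives NDB4 lost its call in 16 and AT4G29370 in 15, AT5G09570 and AT1G18830 in 3 each, and SUC7 in 8. Many of the 26 leave out a sample of another age, which cannot alter the day 4 difference itself. AT5G09570 and AT1G18830 lost their calls with array weights (limma adjusted p = 0.404 and 0.485) and with day 4 fitted alone (0.172 and 0.447). They also lost them without wild-type sample 2 of day 4.

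SUC7 was lower in sahh1 at day 4. It read 6.29, 6.34, 5.11 and 6.70 in sahh1, against 8.39, 7.78, 7.90 and 7.95 in wild type, a difference of -1.89 ± 0.37 (limma adjusted p = 0.0333). No fold is given, because sahh1 array 3 lay near the 5th percentile of those arrays (5.02). AT2G18193 gave the same order of arrays without passing the test: 11.53, 11.59, 10.41 and 10.98 in sahh1, against 11.98 to 12.15 on the 4 wild-type arrays, with a difference of -0.94 ± 0.25 (limma adjusted p = 0.0965). AT1G71000 had a difference of -1.17 ± 0.55 (limma adjusted p = 0.345), with 5.86, 5.80, 6.63 and 5.39 in sahh1 and 8.10, 8.06, 6.31 and 5.88 in wild type, where the wild-type samples themselves differed.

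**Figure D3:**
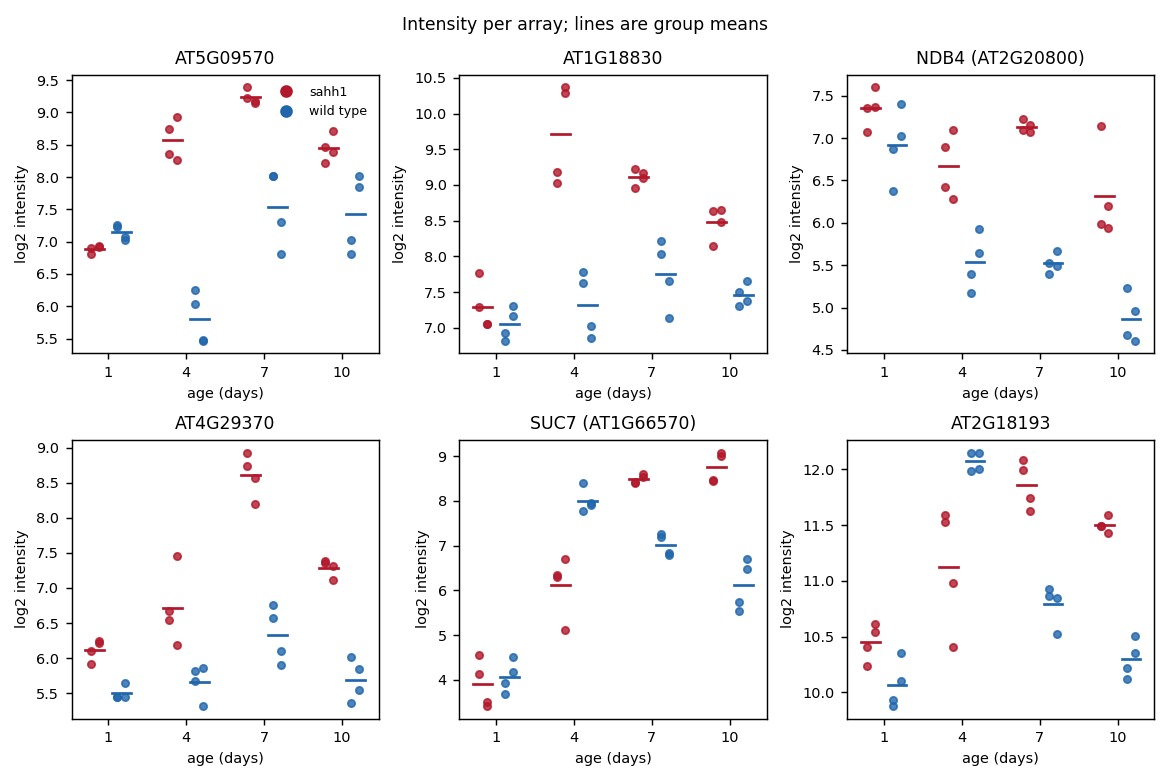
Log2 intensity of every array (points, sahh1 red and left, wild type blue) with group means (lines) against age in days, for the 5 loci called at day 4 and AT2G18193. AT5G09570, AT1G18830, NDB4 and AT4G29370 show sahh1 above wild type without overlap at day 4, and SUC7 and AT2G18193 show it below.

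Among the other loci with the largest day 4 differences, AT1G59930 read 7.03, 7.15, 6.33 and 6.08 in sahh1, against 5.47, 5.28, 5.19 and 5.26 in wild type (1.35 ± 0.33, limma adjusted p = 0.0788). AT1G33817 read 7.18, 6.80, 6.95 and 7.01 in sahh1, against 5.64, 5.74, 5.93 and 5.42 in wild type (1.3 ± 0.31, limma adjusted p = 0.0712). Neither overlapped between genotypes, and neither passed the test. AT1G55650 had a difference of 1.05 ± 0.50 and AT2G31080 one of 1.03 ± 0.32. AT1G55650 rested on 1 sample, with 7.38 and 7.53 on sahh1 arrays 1 and 2 and 5.48 and 5.37 on arrays 3 and 4.

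The calls of day 4 depend on single samples. With day 4 wild-type sample 2 left out, none of the 34 was called higher, and AT5G09570 had an adjusted p of 0.057 and AT1G18830 one of 0.14 in limma. With wild-type sample 1 of day 4 left out, 2 were called higher, and with sahh1 sample 2 of day 4 left out, 13 were. The calls over all loci moved with these: 0.132% were higher without wild-type sample 2, 0.191% without wild-type sample 1 and 9.21% without sahh1 sample 2, against 0.78% with every sample. With either day 4 wild-type sample left out, SUC7 was no longer called (adjusted p = 0.15 and 0.168). SUC7 was also lost without either day 1 sample of wild type (0.0537) or either day 7 sample of sahh1 (0.0514). NDB4 and AT4G29370 were both lost, leaving 2 higher, without either day 1 sample of sahh1 or either day 10 sample of wild type. The sign was kept for all 5 under these changes, with differences of 2.43 for AT5G09570 and 2.01 for AT1G18830 without wild-type sample 2. The median of the 34 was 0.35 without sahh1 sample 1 of day 4. A sample left alone in its group was taken to vary like the other groups.

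Day 4 is likewise unused in a pair of classes of arm loci with other timing. One class of 73 met the condition of days 7 and 10 and was also at least 1 higher at day 1, with no overlap of arrays. Of these, 23 were called higher at day 4 (31.5%), against 4 of the 34 (11.8%) and 0.78% of all loci. The other class, of 150, was at least 1 higher at day 1, again without overlap, and under 1 at days 7 and 10. In it 2 were called higher at day 4 (1.33%). The median day 4 difference was 0.67 for the 34, 0.92 for the 73 and 0.16 for the 150. No test across the classes was made.

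**Figure D4:**
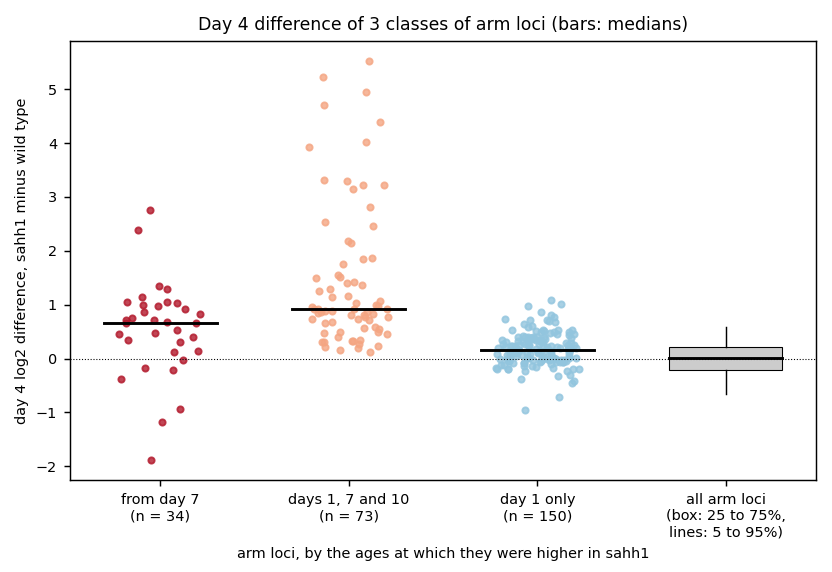
The day 4 log2 difference, sahh1 minus wild type, of each arm locus (points) in 3 classes named by the ages at which sahh1 was higher, with medians as bars, and of all arm loci (box, 25 to 75%, with lines at 5 to 95%). The medians are 0.67 for the 34 loci higher from day 7, 0.92 for the 73 higher at days 1, 7 and 10, and 0.16 for the 150 higher at day 1 alone, against 0.01 for all arm loci.

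The classes also differed in what the annotation says of them, which the choice did not use. Pseudogenes were 32.4% of the 34, 57.5% of the 73 and 80.3% of the annotated loci among the 150, against 3.97% of annotated arm loci. The reference does not mark transposable elements, so loci of that kind may be counted among its pseudogenes. Many of the 34 loci were dim in wild type. Their signal was in the dimmest 25% of loci for 19, 17, 19 and 17 at days 1, 4, 7 and 10. For 10 of them it was so at all 4 ages. In sahh1 the corresponding counts were 18, 7, 2 and 1. The choice used days 1, 7 and 10 of both genotypes, so only the day 4 counts rest on values it did not use. Even these are not wholly separate from it, because loci dim in wild type at 1 age were often dim at another. The other classes were dim in wild type too, with 30, 46, 39 and 37 of the 73 and 84, 111, 97 and 97 of the 150. At day 4 this was 63.0% of the 73 and 74.0% of the 150, against 17 of the 34 and 18.9% of all arm loci. Dim wild-type signal therefore does not set the 34 apart from these classes. AT2G18193 was the single member of the 34 above the median locus in wild type at any age. Probes differ in brightness, so a rank of signal is not a rank of transcript level. In whole seedlings, more transcript per cell and more cells of a kind that expresses a locus cannot be told apart.

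The 34 loci had 62 adjacent loci on the array that were not among them, counting 1 on each side. Of these, limma called 4 higher in sahh1 at day 7 (6.45%), against 0.563% of all loci, and 5 at day 10 (8.06%), against 0.823%. None was called lower at day 7 or 10. The median difference of the neighbours was 0.07 at day 7 and 0.06 at day 10. A difference of at least 1 was seen in 5 at day 7, as in 1.09% of all loci, and in 6 at day 10, as in 1.86%. The GRP run was bounded on both sides: GRP16 differed by -0.24 ± 0.20 and -0.11 ± 0.20 at days 7 and 10, GRP17 by -0.10 ± 0.18 and 0.19 ± 0.18, and AT5G07580 by -0.02 ± 0.20 and 0.23 ± 0.20. None of these passed limma's test, each with an adjusted p of 1. Likewise AT1G33811 and AT1G33820, which flank the pair AT1G33813 and AT1G33817, differed by -0.09 and -0.25 at day 7.

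**Figure D5:**
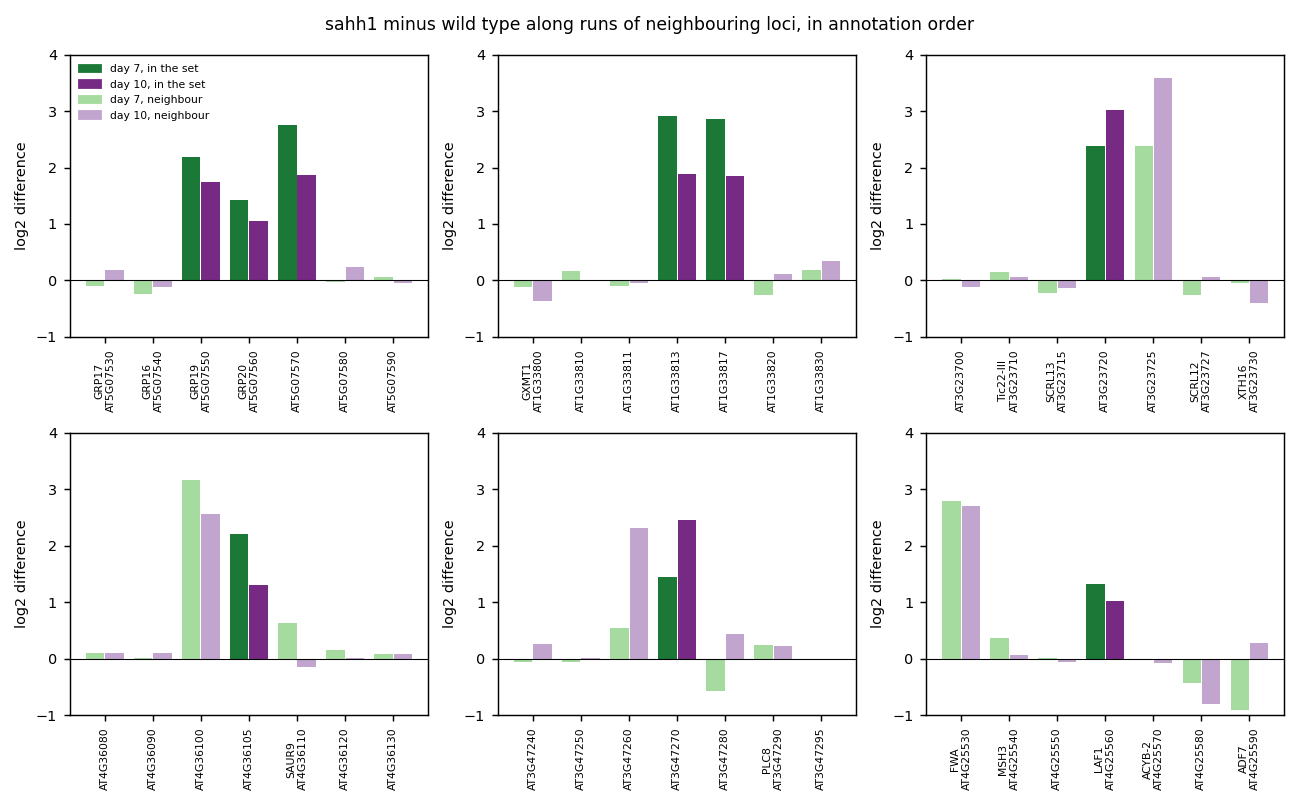
Log2 difference, sahh1 minus wild type, at day 7 (green) and day 10 (purple) along 6 runs of neighbouring loci in annotation order, with the loci of the set in dark and their neighbours in pale colours. The GRP19, GRP20 and AT5G07570 run and the AT1G33813 and AT1G33817 pair have flat neighbours, whereas AT3G23725, AT4G36100 and AT3G47260 are high beside a locus of the set.

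Several neighbours were higher in sahh1 at day 1 as well and so fell outside the choice. The pseudogene AT3G23725, beside AT3G23720, differed by 1.76 ± 0.23 at day 1, 2.38 ± 0.23 at day 7 and 3.59 ± 0.23 at day 10 (limma adjusted p = 7.37e-04, 2.62e-04 and 8.85e-06). The protein-coding AT4G36100, beside AT4G36105, differed by 2.30 ± 0.37, 3.16 ± 0.37 and 2.56 ± 0.37 at the same ages, and the pseudogene AT2G15510, beside AT2G15520, by 1.51 ± 0.32, 3.35 ± 0.32 and 2.30 ± 0.32. Each of these passed limma's test at all 3 ages. The pseudogene AT3G47260, beside AT3G47270, passed at days 1 and 10 (1.75 ± 0.24 and 2.31 ± 0.24) and not at day 7 (0.55 ± 0.24). AT2G19970, beside AT2G19960, was called at days 4, 7 and 10, with 1.43 ± 0.20, 1.18 ± 0.20 and 1.00 ± 0.20, and not at day 1, with -0.13 ± 0.20. LAF1 lies 3 loci from FWA, and both loci between them passed no test at days 7 and 10.

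Relatives of the named loci were looked at by symbol. The families were picked after the values of these loci had been seen. Of 27 relatives on the array in 5 families (sucrose symporters, galactinol synthases, the GRP cluster, the aberrant pollen development family and alternative NAD(P)H dehydrogenases), limma called 0 at day 7 and 0 at day 10, with 0 and 6 at an unadjusted p under 0.05 in either direction (7.47% and 6.98% of all loci). At days 1 and 4 the calls were 0 and 1, with 2 and 7 at an unadjusted p under 0.05 (7.44% and 15.1% of all loci). Their differences lay between -0.64 and 0.42 at day 7 and between -0.58 and 0.98 at day 10. The highest was SUC9 at day 10, with 0.98 ± 0.27 (limma adjusted p = 0.208). NDB2 was called lower at day 4, with -0.87 ± 0.15 (limma adjusted p = 0.0244), the age at which its relative NDB4 was called higher. SUC7 has close relatives in sequence, and without the probe sequences it could not be examined whether its signal includes theirs.

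Of 41 genes that set, read or remove DNA methylation and silencing marks, limma called 1 lower at day 1 (0.296% of all loci), 1 lower at day 7 (0.0658%) and 1 lower at day 10 (0.201%), and 0 higher at these ages, with 0, 3 and 0 higher at an unadjusted p under 0.05 (4.21%, 3.32% and 3.38% of all loci). The gene called at all 3 ages was IBM1, a histone H3K9 demethylase that keeps such methylation out of gene bodies, with -1.19 ± 0.19 at day 1, -1.29 ± 0.19 at day 7 and -1.08 ± 0.19 at day 10 (limma adjusted p = 0.00408, 0.00819 and 0.0182). At day 4 its difference was -0.62 ± 0.19 (limma adjusted p = 0.144). At day 4, 2 of the 41 were called higher (0.78% of all loci) and 0 lower, with 8 higher and 2 lower at an unadjusted p under 0.05 (8.17% and 6.98% of all loci). Those called were CMT3, the chromomethylase of CHG sites, with 0.99 ± 0.15 (limma adjusted p = 0.0123), and FAS1, a subunit of chromatin assembly factor 1, with 0.59 ± 0.13 (limma adjusted p = 0.0463). The medians of the 41 were -0.05, 0.15, 0.09 and 0.07 at days 1, 4, 7 and 10, against -0.02, 0.02, 0.01 and -0.01 over all loci.

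Because GRP19, GRP20 and APD3 are known from anthers and pollen, markers of other tissues were set beside the 34. Limma called 0 of 6 tapetum markers, 0 of 11 pollen markers, 0 of 8 floral organ identity genes and 0 of 8 endosperm markers at any age. At an unadjusted p under 0.05, day 1 had 1 pollen marker higher (4.21% of all loci) and 1 lower (3.23%). Day 4 had 1 floral organ gene higher (8.17%) and 1 pollen marker lower (6.98%). Day 7 had 1 pollen and 1 floral organ gene higher (3.32% of all loci) and 2 endosperm markers lower (4.14%). Day 10 had 0 higher (3.38%), and 1 tapetum, 1 floral organ and 2 endosperm genes lower (3.60%). GRP17, in both the tapetum list and the GRP cluster, is one of the flat neighbours above. The summed signal of the tapetum markers (log2) was 12.49 and 12.61 in the sahh1 samples of day 7, against 12.35 and 12.59 in those of wild type, and 11.08 and 11.17 in sahh1 at day 10, against 11.26 and 11.06 in wild type. For pollen markers it was 12.82 and 13.04 in sahh1 at day 7, against 12.81 and 13.13 in wild type. The samples of the genotypes overlapped in each of these cases, and 4 of 6 tapetum and 8 of 11 pollen markers were in the dimmest 25% in wild type at day 7. The floral organ genes did not overlap: the sum was 11.87 and 11.98 in sahh1 at day 7, against 11.61 and 11.49 in wild type. At day 10 it was lower in sahh1, 11.16 and 11.19 against 11.24 and 11.80. Endosperm sums overlapped at day 7 and were lower in sahh1 at day 10 (7.94 and 8.06, against 8.47 and 8.28).

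The markers of the labelled tissue were bright. The summed log2 signal of 8 green tissue markers was 18.26 and 18.31 in sahh1 at day 7, against 18.35 and 18.35 in wild type, and that of 9 root markers 15.76 and 15.68 in sahh1, against 15.49 and 15.74 in wild type. Limma called 0 green tissue markers at any age. At an unadjusted p under 0.05, 1 was lower at day 1 (3.23% of all loci), 1 higher at day 4 (8.17%) and 1 higher at day 10 (3.38%). Of the root markers 1 was called, EXPA7, an expansin of root hairs, where 0.833% of all loci were called lower at day 4 and 0.201% at day 10. Its differences were -1.44 ± 0.28 at day 4 and -1.95 ± 0.28 at day 10 (limma adjusted p = 0.0329 and 0.00444). Of 11 seed markers 2 were called lower at day 1 (0.296% of all loci), the cruciferin CRU2 with -1.73 ± 0.26 and the albumin SESA3 with -0.93 ± 0.21 (limma adjusted p = 0.00246 and 0.0488). At an unadjusted p under 0.05, 5 seed markers were lower at day 1 (3.23% of all loci) and 1 higher (4.21%). Their median difference at day 1 was -0.57, against -0.02 over all loci. Limma called 0 of 10 salicylic acid defence genes at any age. At an unadjusted p under 0.05, 1 was higher at day 4 (8.17% of all loci) and 1 higher at day 7 (3.32%). The part of any of these in the differences of the 34 loci was not tested.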

How the data were processed

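Expression was measured in 32 single-colour arrays of sahh1 and wild-type seedlings. The deposited values are linear intensities, 1 for each locus on each array, normalized with RMA per the submitters' processing notes. The genome build and annotation are not given in the sources used here. Loci were matched by locus tag to a RefSeq table of TAIR10.1, used for names, biotype and neighbours, and 29996 of 30385 were found. Here log2 was taken, arrays 1 and 2 and arrays 3 and 4 of each group were averaged, and limma 3.58.1 (R 4.3.3) was run on the 16 samples with a mean for each group, 8 residual and 3.16 prior degrees of freedom. Calls are at a Benjamini-Hochberg adjusted p under 0.05 over all loci, none of which was filtered out for low signal. With 2 samples a group an exact permutation test cannot go below 0.333, and with 4 arrays not below 0.0286. In simulated day 4 data with 50 loci per size, 2, 25, 47 and 48 were recovered at log2 differences of 0.5, 1, 2 and 4, with 10 false calls. The simulation gave every group the same spread at a locus. The real sahh1 samples of day 4 were further apart than those of other groups (0.686 against 0.16 to 0.313). These counts therefore do not give the recovery or the false calls of the real day 4 comparison.

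The loci, the 9 lists of genes and the tests were chosen with earlier results of these data known. Loci were named by a written rule: the 12 with the largest mean difference of days 7 and 10, the 8 highest and 4 lowest at day 4, those called or fully below wild type at day 4, those with a symbol, those nearest the limits, those with a neighbour in the set, and silencing genes called at day 7 or 10. Other named neighbours and relatives were chosen after their values were seen. Protein likeness and sequences were not used here. Alternatives covered arrays against samples, normalization, a filter on dim loci, array weights, the prior, the groups in the fit, a replicate block and each sample left out.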

Additional observations from a re-analysis of the deposited data

Results flagged for a closer look

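In 7 of 280 groups of 4 arrays, 1 array stood far from the other 3 by Dixon's criterion, where chance gives about 1 in 20 groups of independent arrays. Arrays 1 and 2, and 3 and 4, are pairs here, so that figure is not an expectation for these groups. AT5G41830 read 7.09 on array 1 of sahh1 at day 7, against 7.81 to 7.86 on the others, and AT5G07570 read 5.25 on array 1 of sahh1 at day 10, against 6.04 to 6.17. AT5G19097 read 9.50 on array 1 of sahh1 at day 1, against 9.77 to 9.82. In wild type, AT1G59930 read 5.72 on array 1 at day 7, against 6.06 to 6.12, and 4.00 on array 1 at day 10, against 5.35 to 5.53. AT3G60170 read 4.09 on array 4 of wild type at day 10, against 4.94 to 5.09, and AT4G29370 read 5.65 on array 4 of wild type at day 1, against 5.44 to 5.45.

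The order of the genotypes turned with age at 3 loci. All 4 sahh1 arrays were below all 4 wild-type arrays at day 4 for SUC7 (AT1G66570), with a difference of -1.89, and for AT2G18193, with -0.94, whereas they were above them at days 7 and 10. For AT5G09570 they were below at day 1, with -0.25, and above at days 4, 7 and 10. The difference between ages was not tested, and days 7 and 10 chose these loci.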

How the results depend on the processing

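Against 4 loci called higher and 1 lower at day 4, 1 called at day 1, 19 at day 7 and 17 at day 10, the counts moved as follows. With 32 arrays in place of samples they were 16 higher and 3 lower at day 4, 4 at day 1, 34 at day 7 and 32 at day 10. With the pair as a random block, 2 were lower at day 4 and 0 called at day 1. After quantile normalization 9 were higher at day 4 (median 1.13), 0 called at day 1, 4 at day 7 and 9 at day 10. With the dimmest 25% of loci left out, which leaves 23 of the 34, 0 were called at day 1, 9 at day 7 and 10 at day 10. Array weights gave 0 higher and 0 lower at day 4 and 3 at day 1, an intensity trend 2 higher at day 4 and 0 at day 1, and fits of 1 age alone 0 higher and 0 lower at day 4, 0 at day 1 and 1 at day 7. Over all loci, 237 were called higher at day 4 in the fit reported (0.78%), 2897 with 32 arrays (9.53%) and 1001 with the random block (3.29%). There were 626 after quantile normalization (2.06%), 338 without the dimmest loci (1.48%) and 284 with the intensity trend (0.935%). Array weights called 16 (0.0527%) and 1 age alone 11 (0.0362%). Lower calls were 8.13% with 32 arrays and 3.45% with the random block, against 0.833%. With the random block 4 of the 34 were higher, as in the fit reported.

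The numbers of the samples did not pair them in the same way at every age. Same-numbered samples of the genotypes deviated together at day 7 (correlation 0.753) and in opposite directions at day 1 (-0.483). The correlations were weaker at days 4 and 10 (0.185 and -0.168). With the sample number as a replicate block, 2 of the 34 were higher at day 4, as were 162 of all loci (0.533%). With the block crossed at days 1 and 10, an alternative chosen after seeing the data, 0 were called at day 1. Of the silencing genes, 1 was higher at day 4 under either block.

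Of the 41 silencing genes, 32 arrays gave 2 lower at day 1, 9 higher and 2 lower at day 4 and 3 higher at day 7. Over all loci that fit called 9.53% higher and 8.13% lower at day 4. The random block gave 4 higher and 1 lower at day 4, against 3.29% and 3.45% of all loci. Array weights gave 0 higher at day 4 (0.0527% of all loci). Fits of 1 age alone gave 0 higher at day 4 (0.0362%) and 0 lower at days 7 and 10.

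With each sample left out in turn, 0 to 13 loci were higher and 0 to 2 lower at day 4 (median 0.35 to 0.77), 0 to 2 were called at day 1, between 8 and 22 at day 7, and at day 10 between 9 and 23. At day 7 wild-type sample 2 (8), sahh1 sample 1 (11) and sahh1 sample 2 (12) of that age lowered the count most, and at day 10 without wild-type sample 1 or sahh1 sample 2 of that age (9 each). Silencing genes called ranged over 0 to 1 lower at days 1, 7 and 10, and 0 to 7 higher and 0 to 3 lower at day 4. The day 4 sign turned for GRP19 (AT5G07550; 0.04 without wild-type sample 2, 0.40 without sahh1 sample 1), AT5G38383 (-0.06 without wild-type sample 2, -0.02 without sahh1 sample 2), and, without sahh1 sample 1, AT1G60110 (-0.14), AT1G63340 (-0.02) and APD3 (AT2G38220; -0.14). None of these was called. The choice itself gave 38 loci after quantile normalization (27 shared), 33 after cyclic loess (33 shared), 49 at a limit of 0.8 and 25 at 1.2. The cause of these changes was not tested.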
